A study of Mus musculus with 15 samples.

Results

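The genes described here encode the proteins of cytotoxic granules, namely the granzymes Gzma, Gzmb, Gzmc and Gzmk, the pore-forming protein perforin (Prf1), the granule membrane protein Nkg7, the granule proteoglycan serglycin (Srgn) and the cysteine protease cathepsin W (Ctsw). They were picked by name, with earlier results of these data known, and all 8 are present among the 24015 genes of the deposited count table. A filter on low counts left 13578 genes for testing, among them 7 of the 8, and removed Gzmk, which was almost never read. RNA had been sequenced from regulatory T cells (Tregs, the CD4 T cells that restrain immune responses) to ask what the nuclear receptor ROR-alpha, encoded by Rora, does in the Tregs of skin. Counts were available for 15 libraries in 5 groups of 3.

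All mice were adult C57BL/6 animals carrying Foxp3 cre-eyfp, an allele that makes Cre recombinase and a yellow fluorescent protein (YFP) wherever the Treg factor Foxp3 is expressed, so Cre was present in every group, controls included. Cells were sorted by flow cytometry as CD45+ CD3+ CD4+ YFP+. The control genotype carried no other allele and is called wild type (WT). The second genotype also carried Rora fl/fl, so that Cre deletes part of Rora in Foxp3-expressing cells, and is called cKO. WT Tregs came from untreated skin, from MC903-treated skin and from the axillary lymph nodes that drain skin (LN). The cKO Tregs came from untreated and from MC903-treated skin. MC903 is a vitamin D analogue that causes allergic-type inflammation of skin, and mice received 4 applications to the ears. Untreated skin was taken from the back together with the ears, and MC903 skin from the ears alone, so treatment and site cannot be told apart. Skin was digested for 90 minutes and no digestion is given for LN, so tissue and digestion cannot be told apart. The labels call the libraries biological replicates without saying whether each came from its own mouse or from pooled mice, so p-values measure only the spread between these samples.

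Cytotoxic lymphocytes store granzymes and perforin in acidic granules, bound to serglycin. On contact with a target cell the granules fuse with the surface membrane, perforin opens the target membrane, and granzymes enter and cut proteins that commit the cell to die. Activated Tregs can also make granzyme B, which has been linked to killing of responder cells and to cleavage of proteins outside cells. Nkg7 sits in the granule membrane and takes part in granule release, and cathepsin W is found in CD8 T cells and NK cells.

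Promoters of 4 genes are shown. Gzmb was called by tissue and genotype, Nkg7 by genotype and treatment, and Gzma by treatment, and Gzmc was the only one of the 7 members searched with a ROR half-site in this window. RefSeq's promoter table (build GRCm38.p6) matched 7 of the 8 genes, without Ctsw. The 250 bases before the transcript start are printed 5′ to 3′ on the gene's strand, and capitals mark matches, on either strand, to AGGTCA (the ROR half-site), TGANTCA (AP-1), TGTGGT (the RUNX core, read as ACCACA from the other strand) or GGTGTGA (T-box).
Gzmb (chr14:56262335-56262584, minus strand): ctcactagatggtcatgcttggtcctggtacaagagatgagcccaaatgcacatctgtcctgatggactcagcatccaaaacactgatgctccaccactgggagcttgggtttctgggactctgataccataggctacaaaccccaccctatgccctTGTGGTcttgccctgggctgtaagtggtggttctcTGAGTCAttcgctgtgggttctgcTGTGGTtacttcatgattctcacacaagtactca
Nkg7 (chr7:43436888-43437137, plus strand): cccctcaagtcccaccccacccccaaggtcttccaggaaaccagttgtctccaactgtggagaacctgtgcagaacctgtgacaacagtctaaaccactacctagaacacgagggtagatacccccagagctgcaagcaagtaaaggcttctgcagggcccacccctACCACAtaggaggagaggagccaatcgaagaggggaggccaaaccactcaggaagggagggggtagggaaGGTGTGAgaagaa
Gzma (chr13:113100982-113101231, minus strand): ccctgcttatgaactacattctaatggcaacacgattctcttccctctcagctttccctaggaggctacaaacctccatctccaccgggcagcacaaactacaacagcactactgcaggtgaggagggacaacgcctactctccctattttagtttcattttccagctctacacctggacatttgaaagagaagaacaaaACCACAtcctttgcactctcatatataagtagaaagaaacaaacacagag
Gzmc (chr14:56234658-56234907, minus strand): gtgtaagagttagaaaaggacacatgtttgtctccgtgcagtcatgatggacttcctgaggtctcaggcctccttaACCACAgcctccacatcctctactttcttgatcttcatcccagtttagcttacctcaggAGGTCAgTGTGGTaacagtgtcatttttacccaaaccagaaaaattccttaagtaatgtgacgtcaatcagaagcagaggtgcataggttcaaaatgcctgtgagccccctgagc
The Gzmb promoter held an AP-1 match 58 bases before the start and RUNX matches at 93 and 34 bases. A RUNX match at 83 bases and a T-box match at 13 bases were found in the Nkg7 promoter, and a single RUNX match at 50 bases in the Gzma promoter. The Gzmc promoter held AGGTCA 115 bases before the start and RUNX matches at 174 and 108 bases. No printed matches overlapped. Among 32851 mouse promoters of the same length, 14.02% held AGGTCA, 6.75% TGANTCA, 14.05% TGTGGT and 3.33% GGTGTGA. A match is a string of letters and does not show that a factor binds.

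Libraries held 19774723 to 27745008 counts in total. Levels are given as CPM, a gene's counts relative to the TMM-scaled library total on the usual mega scale, and 3 counts, the level that a count of 0 allows, corresponded to 0.0941 to 0.162 CPM. Rora averaged 1393 ± 102 CPM in WT untreated skin and 1031 ± 192 in cKO untreated skin, 788 ± 42.4 in WT MC903 skin and 532 ± 87.3 in cKO MC903 skin (SD, n = 3). Its transcript was therefore still read in every cKO library, and counts per gene cannot tell exons inside the floxed stretch from the others. In bulk RNA, fewer cells of a type and less RNA per cell cannot be told apart. Foxp3, Cd4 and Cd3e were read in all 15 libraries, and Foxp3 averaged 28.8 CPM in LN and 125 to 171 CPM in the skin groups. Replicate 3 of LN stood apart from the other LN libraries by its transcripts of B cells (619 CPM summed over 6 markers, against 170 and 196), of a list for macrophages and dendritic cells (2205 CPM over 14 genes, against 680 and 797) and of CD8, NK and gamma-delta T cells (97.8 CPM over 14 markers, against 61.6 and 66.5). In the macrophage and dendritic cell list, Cd68, Flt3, Cd14 and Cd207 each averaged 2.64 CPM or less in LN. Most of that sum therefore came from other genes of the list. It includes Cd74 and H2-Aa, which B cells also express, so the sum is not specific to macrophages and dendritic cells.

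Gzmb led the granzyme transcripts of skin Tregs: divided by merged exon length it stood at 650.5 CPM per kilobase in WT untreated skin, and Gzmc, the next, at 25.3. Gzmb was read at 11.8, 6.66 and 14.8 CPM in LN, at 988, 842 and 973 CPM in WT untreated skin and at 1185, 956 and 1247 CPM in WT MC903 skin. The cKO libraries held 5037, 3062 and 4017 CPM in untreated skin and 4506, 3574 and 4538 CPM in MC903 skin. All 6 cKO libraries lay above all 6 WT skin libraries, all skin libraries lay above LN, and the untreated and treated libraries of a genotype overlapped. From LN to skin the fitted rise was 84.3-fold, a log2 change of 6.40 ± 0.29 (SE, edgeR quasi-likelihood test, adjusted p = 5.89e-11). Against WT, cKO Tregs held 4.32 times as much in untreated skin (log2 change 2.11 ± 0.23, adjusted p = 2.35e-04) and 3.72 times as much in MC903 skin (1.90 ± 0.23, adjusted p = 8.83e-04). These calls held in each of the 23 alternative analyses, in which the largest adjusted p was 0.0104 in untreated skin and 0.0119 in MC903 skin. Between MC903 and untreated skin the log2 difference of Gzmb was 0.27 in WT (95% interval -0.20 to 0.75) and 0.06 in cKO (-0.42 to 0.53), and neither passed the test. The difference between the genotype effects of treated and untreated skin was -0.22 (95% interval -0.89 to 0.46, adjusted p = 0.956).

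**Figure D1:**
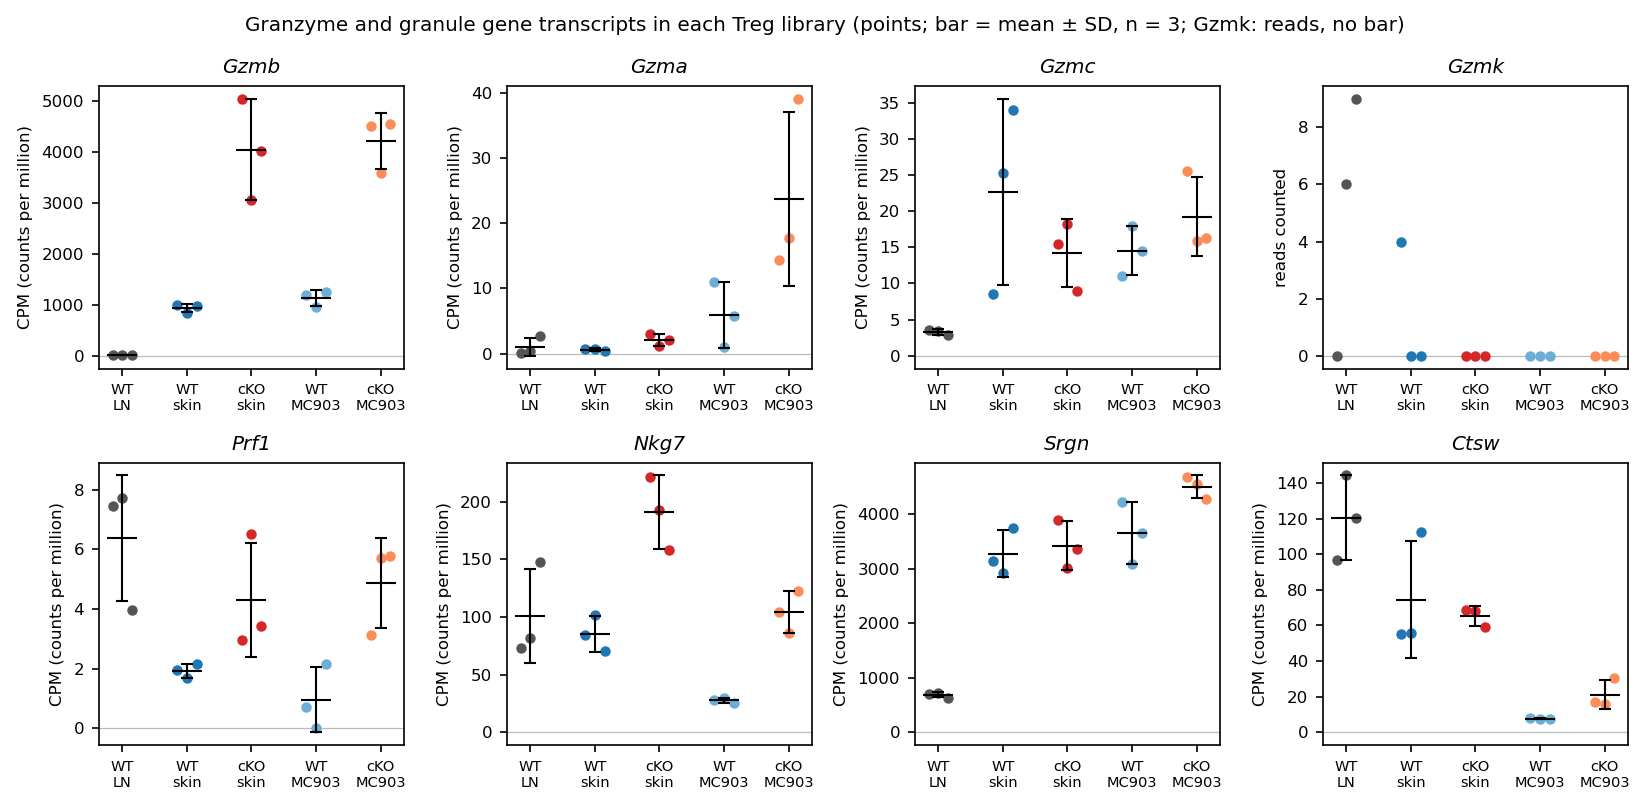
Level of each gene in each library, in CPM on linear axes that differ between panels (reads counted for Gzmk), by group; points are libraries and black bars the mean ± SD of 3. Gzmb is at 3062 CPM or more in every cKO library and at 1247 CPM or less in every WT library, Nkg7 and Ctsw are lowest in WT MC903 skin, and Srgn differs mainly between LN and skin.

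Gzma, the tryptase-like granzyme, was read at low levels throughout. LN held 0.107, 0.476 and 2.67 CPM, WT untreated skin 0.662, 0.796 and 0.377 CPM, and cKO untreated skin 3.01, 1.16 and 2.07 CPM. WT MC903 skin held 11.03, 1.04 and 5.75 CPM and cKO MC903 skin 14.4, 17.7 and 39.1 CPM. The cKO MC903 libraries lay above all others, while replicate 2 of WT MC903 skin, read at 28 counts, lay between the untreated WT and the untreated cKO libraries. In MC903 skin Gzma was higher than in untreated skin, in cKO by a log2 change of 3.51 ± 0.95 (adjusted p = 0.0302) and in WT by 3.26 ± 0.98, at an adjusted p of 0.04999 that only just passed. The WT call was lost in 17 of 23 alternatives (adjusted p up to 0.344), among them the omission of any WT untreated library (0.124 to 0.132) or of replicate 1 (0.173) or 3 (0.0925) of WT MC903 skin. The cKO call was lost without replicate 2 (0.122) or 3 (0.111) of cKO untreated skin, and without replicate 2 (0.0602) or 3 (0.0816) of the treated cKO libraries. Genotype differences of 1.75 ± 0.96 in untreated skin (adjusted p = 0.531) and 2.00 ± 0.88 in MC903 skin (0.701) did not pass.

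Gzmc, a granzyme of the same gene cluster as Gzmb, was read at 3.55, 3.46 and 2.86 CPM in LN and at 8.60, 25.3 and 34.0 CPM in WT untreated skin. The groups did not overlap, and the log2 change of 2.78 ± 0.42 passed the test (adjusted p = 3.78e-05). Over the other 9 skin libraries it ranged from 8.94 to 25.5 CPM, inside the range of WT untreated skin. No genotype or treatment comparison called it, with log2 values of -0.67 ± 0.39 for genotype in untreated skin and 0.40 ± 0.39 in MC903 skin. Gzmc shares sequence with its neighbours: 10.6% of its 75-base windows matched Gzmd, Gzme, Gzmf or Gzmg with at most 2 mismatches. No window of Gzma, Gzmb or Gzmk matched another granzyme. Gzmd, Gzme, Gzmg and Gzmn were at 0 in all 15 libraries, and Gzmf and Gzmm, which reached 65 and 35 counts, passed the filter and were called in no comparison.

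Gzmk had 0, 6 and 9 counts in the LN libraries and 4, 0 and 0 in WT untreated skin. The 9 other libraries held none. With at most 9 counts in a library, no difference in Gzmk was detectable at this depth.

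Perforin, the pore former, was read at low levels too. Prf1 was read at 7.46, 7.74 and 3.95 CPM in LN, 1.94, 1.68 and 2.15 CPM in WT untreated skin and 2.96, 6.51 and 3.44 CPM in cKO untreated skin. WT MC903 skin held 0.710, 0 and 2.14 CPM and cKO MC903 skin 3.11, 5.72 and 5.77 CPM. Every cKO library lay above every WT skin library, but the counts were small, from 0 to 151 in skin, and the differences did not pass: 1.16 ± 0.81 in untreated skin (adjusted p = 0.625) and 2.36 ± 0.85 in MC903 skin (0.4996). Averaged over treatments the log2 difference was 1.76 ± 0.58 (adjusted p = 0.189), whereas DESeq2 called it (0.0366). Skin against LN, at -1.73 ± 0.82 (adjusted p = 0.0820), was not called either. It was called by 4 of the 23 alternatives: DESeq2 (0.0488), voom (0.0282), the fit to these groups alone (0.00835) and the fit without replicate 2 of WT MC903 skin (0.00785). The authors' deposited table gives 1.35 ± 0.60 for LN against skin with an adjusted p of 0.0443. Divided by merged exon length, Gzmb stood at 3.12 times the level of Prf1 in LN, 874 times in WT untreated skin and 1689 times in cKO untreated skin. The same per-length ratio was 2142 in WT MC903 skin and 1555 in cKO MC903 skin, ratios that rest on low Prf1 counts, including a library with none.

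Nkg7 differed with both genotype and treatment. It was read at 73.4, 81.7 and 147 CPM in LN, 84.3, 102 and 70.6 CPM in WT untreated skin and 222, 193 and 158 CPM in cKO untreated skin. WT MC903 skin held 28.2, 29.6 and 25.0 CPM and cKO MC903 skin 104, 85.8 and 123 CPM. The 2 genotypes did not overlap in either treatment, the WT MC903 libraries were the lowest of all 15, and the cKO untreated libraries were the highest. In MC903 skin the cKO cells held 3.77 times the WT level (log2 change 1.92 ± 0.24, adjusted p = 8.92e-04), a call kept in all 23 alternatives (adjusted p up to 0.00919). In untreated skin the difference was 1.16 ± 0.23 (adjusted p = 0.0226). That call was lost without replicate 1 or 3 of WT untreated skin (0.0682 and 0.107) or replicate 1 or 2 of cKO untreated skin (0.103 and 0.0736). Nkg7 was lower in MC903 than in untreated skin of WT by a log2 change of -1.63 ± 0.24 (adjusted p = 5.81e-04), 3.098-fold, in all alternatives. In cKO it was lower by -0.87 ± 0.23 (adjusted p = 0.0228), which was lost without replicate 1 (0.0608) or 2 (0.0713) of cKO untreated skin and without replicate 1 (0.0662) or 2 (0.109) of the treated cKO libraries. The interaction, 0.76 ± 0.32, did not pass (adjusted p = 0.866).

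Ctsw differed most with treatment. It was read at 96.8, 144 and 121 CPM in LN, 55.3, 55.8 and 113 CPM in WT untreated skin and 68.7, 68.2 and 59.1 CPM in cKO untreated skin. WT MC903 skin held 7.89, 7.39 and 7.46 CPM and cKO MC903 skin 16.8, 15.9 and 30.5 CPM. All treated libraries lay below all untreated ones, the WT treated libraries were the lowest, and replicate 3 of WT untreated skin fell within the LN range. Ctsw was lower in MC903 than in untreated skin, 9.83-fold in WT (log2 change -3.30 ± 0.30, adjusted p = 2.43e-05) and 3.105-fold in cKO (-1.63 ± 0.28, adjusted p = 0.00215), and both calls held in all 23 alternatives. The genotypes overlapped in untreated skin (-0.19 ± 0.27) and did not in MC903 skin, where cKO was higher by 1.47 ± 0.29 (adjusted p = 0.0434). That call was lost in 11 alternatives, with an adjusted p of 0.142 to 0.188 without any 1 WT MC903 library, 0.212 without replicate 3 of cKO MC903 skin, 0.0623 to 0.0685 without any 1 cKO untreated library and 0.0517 without LN replicate 3. The interaction of 1.66 ± 0.39 had an unadjusted p of 6.55e-04 and did not pass (adjusted p = 0.643), and DESeq2 called it (0.0386). Ctsw was lower in skin than in LN by -0.69 ± 0.27 (adjusted p = 0.0387), a call lost in 10 alternatives, including without LN replicate 2 or 3 (0.140 and 0.0837), WT untreated replicate 1 or 2 (0.147 and 0.149) or WT MC903 replicate 1 (0.0569).

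Srgn, which holds granzymes in the granule, was abundant in every library. It was read at 708, 722 and 631 CPM in LN, 3146, 2921 and 3751 CPM in WT untreated skin and 3891, 3003 and 3357 CPM in cKO untreated skin. WT MC903 skin held 4212, 3081 and 3657 CPM and cKO MC903 skin 4683, 4547 and 4273 CPM. Skin libraries all lay above LN, and the cKO MC903 libraries lay above the other skin libraries. The rise from LN to skin was 4.76-fold (log2 change 2.25 ± 0.14, adjusted p = 3.34e-09). Within skin no comparison passed, and the nearest was MC903 in cKO at 0.40 ± 0.14 (adjusted p = 0.0727), which passed by DESeq2 (0.0378), by voom (0.0103) and without replicate 1 of cKO untreated skin (0.0355). Divided by exon length, Srgn stood at 50.8 times the level of Gzmb in LN, 2.87 times in WT untreated skin and 0.693 times in cKO untreated skin, and 2.65 and 0.876 times in WT and cKO MC903 skin.

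**Figure D2:**
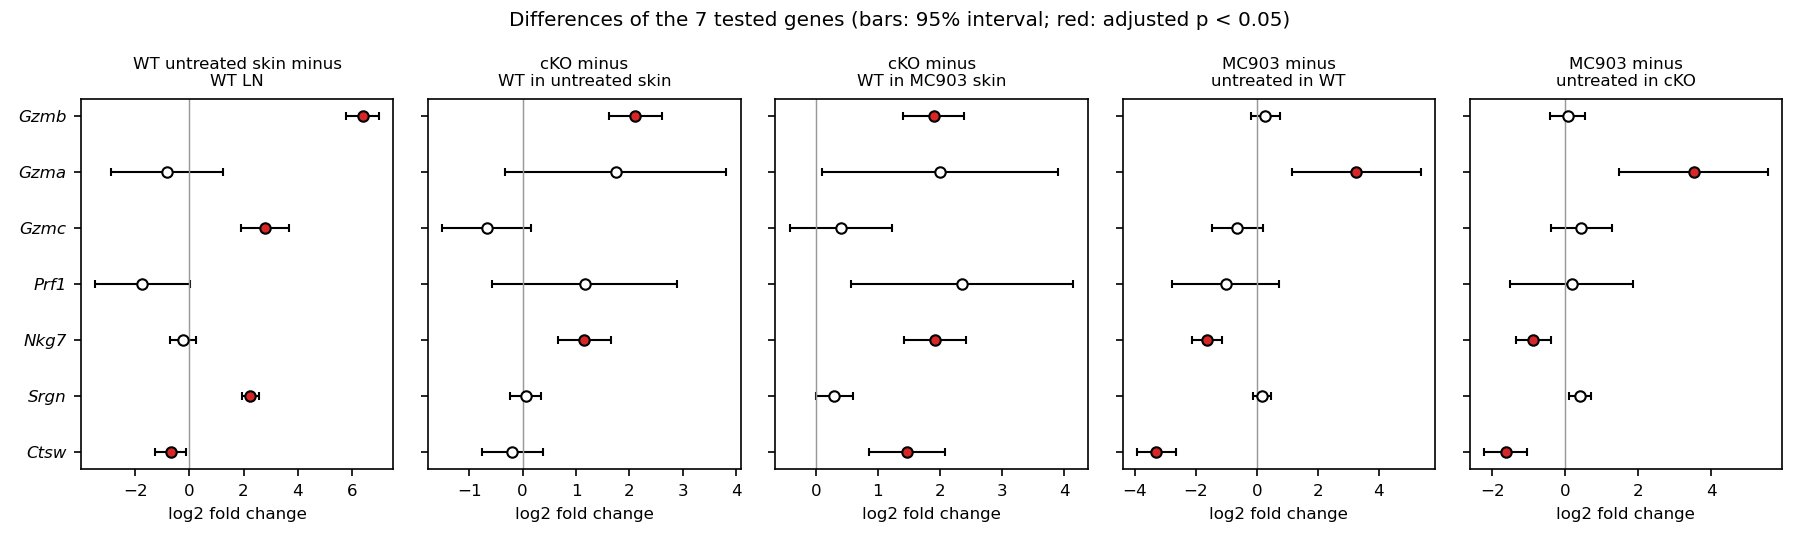
Log2 fold change of the 7 tested genes in each of 5 comparisons; points are fitted values, bars their 95% intervals, and red marks an adjusted p under 0.05. Gzmb and Nkg7 are higher in cKO in both treatments, and Nkg7 and Ctsw are lower with MC903 in both genotypes while the intervals of Gzmb include 0.

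Set against all genes tested, the counts differed between comparisons. The members were chosen with earlier results of these data known, so the counts describe them and do not test them as a set. From LN to skin 3 of the 7 tested genes were called higher and 1 lower, where 28.8% of all genes were called in each direction, and the members' median log2 change was -0.24 against 0.01 over all genes. In untreated skin 2 were higher in cKO and none lower, against 0.398% and 0.405% of all genes, with medians of 1.16 and -0.00489. In MC903 skin 3 were higher in cKO and none lower, against 0.081% and 0.177%, with medians of 1.90 and -0.00618. With MC903, 1 gene was called higher and 2 lower in WT, against 5.03% and 5.44% of all genes, and 1 higher and 2 lower in cKO, against 5.96% and 5.3%. Averaged over treatments, Gzmb (2.00 ± 0.16, adjusted p = 5.25e-06) and Nkg7 (1.54 ± 0.17, adjusted p = 6.90e-05) were higher in cKO, where 0.884% of all genes were called higher and 0.862% lower. The interaction called none of the 7 and 0% of all genes by edgeR, with 765 genes at an unadjusted p under 0.05 and 21 called by DESeq2. The 2 genotype comparisons share no library, whereas each of them shares libraries with the treatment comparisons.

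The sort could have let through CD8 T cells, NK cells or gamma-delta T cells, which carry the same granules. Of 16 marker genes listed for these cells, 14 were in the count table. Their summed level was 61.6 to 97.8 CPM in LN, 16.2 to 18.5 in WT untreated skin, 24.3 to 39.5 in cKO untreated skin, 17.3 to 27.4 in WT MC903 skin and 28.0 to 59.1 in cKO MC903 skin. The sums were thus higher in cKO than in WT libraries of the same treatment, as Gzmb and Nkg7 were. They do not show gamma-delta T cells apart from the others, since the genes listed for those cells, Trdc and Tcrg-C1, are not given singly. Of the defining markers, Ncr1 (an NK cell receptor) was at 0 in all 12 skin libraries, Klrb1c at 0 in 11 of 12, and Cd8a at 0 in 6 of 12 with at most 1.65 CPM. Cd8b1 was read at 8.73 to 21.2 CPM in skin, and its genotype differences of 0.83 ± 0.26 in untreated skin (adjusted p = 0.209) and 0.73 ± 0.18 averaged (0.0630) did not pass. None of the 9 markers tested was called by genotype, and 1, Fcgr3, was higher with MC903 in cKO, where 5.96% of all genes were. The median log2 genotype difference of the 9 was 0.83 in untreated skin and 0.63 in MC903 skin, against -0.00489 and -0.00618 over all genes. Without the library of each group richest in these markers, which leaves 2 per group, Gzmb was higher in cKO by 1.96 in untreated skin (adjusted p = 0.0104) and 2.08 in MC903 skin (0.0119), and Nkg7 by 1.03 (0.0426) and 1.97 (0.00649). Ctsw lost its calls there, by genotype in MC903 skin (0.205) and in skin against LN (0.240). Also lost were the calls of Nkg7 with MC903 in cKO (0.0604) and of Gzma with MC903 in WT (0.114). The cKO libraries left in that analysis still held more of these markers than the WT ones, at 24.3 and 25.3 against 16.2 and 18.1 CPM in untreated skin and 28.0 and 38.0 against 17.3 and 25.4 CPM in MC903 skin. Their part in the genotype results was not tested.

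Mast cell, basophil and granulocyte markers, summed over 13 genes, were at 2.73 to 4.21 CPM in LN, 19.7 to 26.3 in WT untreated skin, 11.6 to 19.1 in cKO untreated skin, 14.2 to 47.3 in WT MC903 skin and 22.9 to 51.5 in cKO MC903 skin. Kit, at a mean of 2.37 CPM in LN and 17.6 in WT untreated skin, made up most of the sum in these 2 groups. Of the 13 genes, 7 to 10 were at 0 in LN libraries and 7 to 11 in WT untreated skin. In WT MC903 skin the library with the highest sum, replicate 1, also had the most Gzma, and replicate 2 had the lowest sum and the least Gzma. In cKO MC903 skin replicate 3 had the most Gzma and the least of these markers. The mast cell protease gene Cpa3 had no counts in any cKO untreated library, was read at 5.36, 11.7 and 1.76 CPM in cKO MC903 skin, and was called higher with MC903 in cKO (adjusted p = 0.0188), as Gzma was. It was the 1 gene called of the 9 tested in this list, where 5.96% of all genes were called higher and 5.3% lower. Cma1, likewise at 0 in all cKO untreated libraries, was read at 7.87, 13.3 and 2.67 CPM in cKO MC903 skin.

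Markers of macrophages, dendritic and Langerhans cells, summed over 14 genes, were at 680 to 2205 CPM in LN, 645 to 1220 in WT untreated skin, 801 to 1585 in cKO untreated skin, 467 to 587 in WT MC903 skin and 690 to 916 in cKO MC903 skin. In MC903 skin the cKO sums thus lay above the WT sums, as Gzmb, Nkg7 and Ctsw did, although none of the 12 tested markers was called by genotype. There Cd68 averaged 7.07 CPM in WT and 21.8 in cKO, and Itgam 4.17 and 4.18. Most of these sums came from other genes of the list, which includes Cd74 and H2-Aa. With MC903 in cKO 3 of the 12 were called higher and none lower: Itgam (adjusted p = 0.00313), which was at 0 in the cKO untreated libraries, Cd68 (0.0316) and C1qa (0.0376). Of all genes, 5.96% were called higher and 5.3% lower there. The list's median log2 change in that comparison was 1.19, and in WT, where none was called, -0.68. Of 14 markers of keratinocytes, fibroblasts and endothelium, Sfn alone was called by genotype, lower in cKO by -0.76 in untreated skin (adjusted p = 0.0387) and -1.15 in MC903 skin (0.00341). Among all genes 0.405% and 0.177% were called lower in these comparisons. The part of the cells of these lists and of mast cells in the Gzma, Gzmb, Nkg7 and Ctsw results was not tested.

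**Figure D3:**
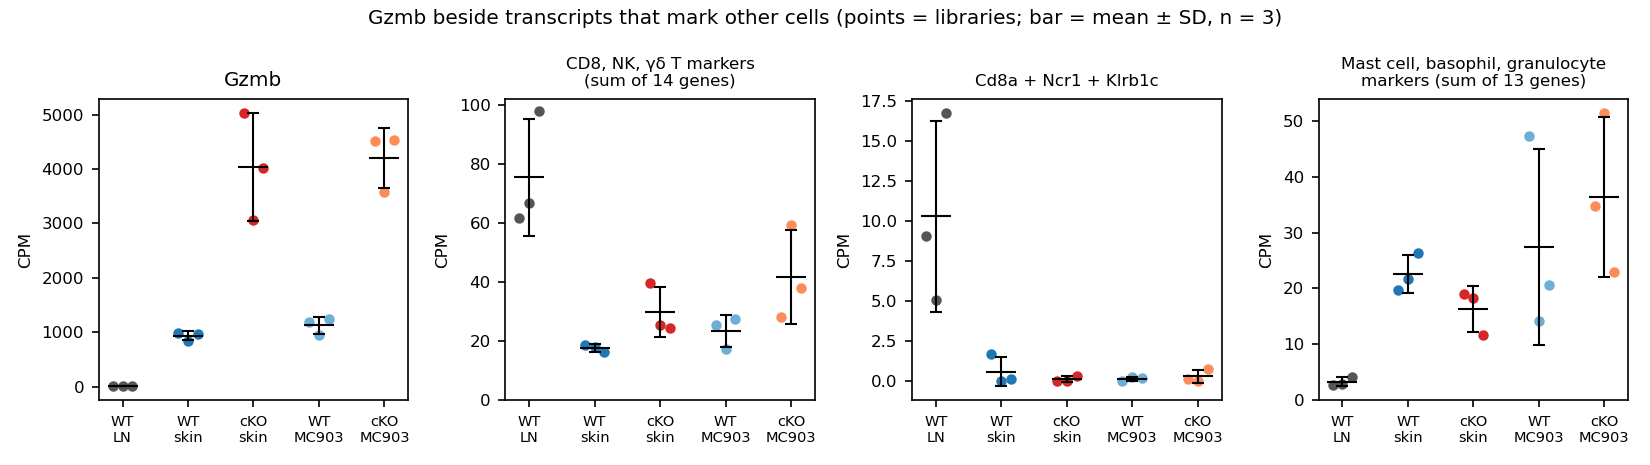
Gzmb in each library beside the summed CPM of 14 markers of CD8, NK and gamma-delta T cells, the sum of Cd8a, Ncr1 and Klrb1c, and 13 markers of mast cells, basophils and granulocytes; points are libraries, bars the mean ± SD of 3, and axes are linear and differ. Markers of CD8 and NK cells are highest in LN, where Gzmb is lowest. Within skin the sum of the 14 markers is higher in cKO than in WT libraries of the same treatment, as Gzmb is.

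Genes that act with the granules were examined next, with 28.8% of all genes called higher and 28.8% lower from LN to skin as background for their counts. Of 14 genes of granzyme processing and granule cargo, 10 were higher in skin than LN and 1 lower (median 1.20). They included the cathepsin inhibitor genes Ctla2a (5.71 ± 0.25, adjusted p = 5.12e-11) and Ctla2b (5.37 ± 0.26) and cathepsin L itself, Ctsl (3.72 ± 0.23). Cathepsin C (Ctsc), the enzyme that activates granzymes, was not among those called. None of the 14 was called by genotype in either treatment. The 2 called with genotype averaged, Ctsl (0.60 ± 0.14, adjusted p = 0.0400) and Cst7 (0.61 ± 0.14, 0.0437), lost the call in 12 and 14 of 23 alternatives.

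Serpins that block granzymes and related proteases gave 6 tested genes. Serpinb1a, an inhibitor of elastase-like and chymotrypsin-like granule proteases, was read at 77.1, 111 and 85.8 CPM in WT untreated skin against 45.5, 33.1 and 26.9 in cKO, and at 55.2, 47.8 and 75.95 CPM in WT MC903 skin against 23.0, 19.2 and 18.2 in cKO. All cKO libraries lay below all WT skin libraries, the opposite order to Gzmb. Averaged over treatments Serpinb1a fell in cKO, by a log2 change of -1.47 ± 0.28 (adjusted p = 0.0127), and the call held in all 23 alternatives. In single treatments no serpin was called by genotype. Serpinb9, the mouse relative of the human granzyme B inhibitor, was higher with MC903 in WT by 0.93 ± 0.22 (adjusted p = 0.0152, lost in 4 alternatives), and Serpinb6b by 1.08 ± 0.22 (0.00661, held in all). Serpinb6a was lower with MC903 in WT by -0.86 ± 0.24 (0.0295, lost in 6), and Serpina3f in cKO by -1.42 ± 0.42 (0.0413, lost in 10). In skin against LN Serpina3g was lower (-2.24 ± 0.31) and Serpinb1a higher (2.17 ± 0.40).

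The release machinery counted 22 tested genes, of which 9 were higher and 3 lower in skin than LN, where 28.8% of all genes were called in each direction (median 0.21 against 0.01 over all genes). Sytl3, a synaptotagmin-like protein that binds Rab GTPases on vesicles, rose from 0.853 CPM in LN to 27.5 CPM in WT untreated skin (4.99 ± 0.32, adjusted p = 3.73e-09), and Stx11, a syntaxin needed for granule fusion, by 2.93 ± 0.19. By genotype none passed in a single treatment. Sytl3 was higher in cKO averaged over treatments (1.02 ± 0.18, adjusted p = 0.0060), a call lost only in the analysis without the library of each group richest in CD8 and NK markers (0.0712).

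Death ligands and their receptors are a route of killing that does not use granules. Of 6 tested genes, 4 were lower with MC903 in each genotype, where 5.44% of all genes were called lower in WT and 5.3% in cKO, and the medians were -0.96 in WT and -0.85 in cKO. Tnf fell by -2.09 ± 0.35 in WT (adjusted p = 0.00206) and -2.10 ± 0.36 in cKO (0.00228), and Tnfrsf10b, a receptor of the ligand TRAIL, by -0.98 ± 0.16 and -0.79 ± 0.16, all held in every alternative. Fas ligand, Fasl, fell by -1.45 ± 0.33 in WT (0.0111), lost in 1 alternative, and by -1.16 ± 0.32 in cKO (0.0304), lost in 6. Tnfsf10, which encodes TRAIL, was read at 20.7, 16.8 and 20.1 CPM in WT untreated skin and 39.5, 30.9 and 39.6 in cKO, and at 18.4, 15.3 and 15.7 CPM in WT MC903 skin and 30.4, 25.3 and 24.6 in cKO. The genotypes did not overlap in either treatment. Averaged over treatments Tnfsf10 was higher in cKO by 0.82 ± 0.14 (adjusted p = 0.00478), in all 23 alternatives. In untreated skin alone it was higher by 0.93 ± 0.20 (0.0376), lost in 10 alternatives.

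Of 23 tested transcription factors of cytotoxic and effector programmes, 16 were higher and 5 lower in skin than LN. Of all genes 28.8% were called in each direction, and the medians were 1.59 and 0.01 over all genes. Id2, an inhibitor of E proteins, rose by 5.03 ± 0.18 and the homeodomain protein gene Hopx by 2.81 ± 0.17, and Tcf7, a factor of naive and memory T cells, fell by -4.92 ± 0.38. Tbx21, which encodes the T-box factor T-bet, was read at 37.1, 32.1 and 23.2 CPM in WT untreated skin, 31.8, 59.6 and 49.9 in cKO untreated skin, 2.80, 3.83 and 3.89 in WT MC903 skin and 7.996, 10.7 and 11.97 in cKO MC903 skin. Like Nkg7 and Ctsw, it was lower in all treated than in all untreated libraries of the same genotype, and within MC903 skin it was lower in all WT than in all cKO libraries. It fell with MC903 by -3.13 ± 0.29 in WT (adjusted p = 2.43e-05) and -2.20 ± 0.28 in cKO (2.15e-04). Its genotype difference in MC903 skin, 1.54 ± 0.28 (adjusted p = 0.0233), was lost without any 1 of the WT MC903 libraries (0.170, 0.0998 and 0.0717) and without replicate 2 (0.104) or 3 (0.131) of the treated cKO libraries. Averaged over treatments it was higher in cKO by 1.08 ± 0.19 (0.00575), in all alternatives. In the same average Id2 (-0.50 ± 0.11, 0.0236) and Stat5a (-0.39 ± 0.095, 0.0482) were lower in cKO. Those calls were lost in 7 and 17 of the 23 alternatives.

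Runx1, a factor that binds the RUNX core, was read at 82.9, 83.1 and 86.8 CPM in WT untreated skin and 40.6, 54.4 and 42.3 in cKO untreated skin. It was lower in cKO by -0.88 ± 0.16 (adjusted p = 0.00996), a call lost without replicate 1 or 3 of cKO untreated skin (0.0575 and 0.0677). The genotype difference averaged over treatments was -0.71 ± 0.11 (0.0020), in all alternatives. Runx1 was also lower with MC903 in WT, by -0.84 ± 0.16 (adjusted p = 0.00333), in all alternatives. It averaged 47.1 CPM in WT MC903 skin, 45.8 in cKO untreated skin and 32.4 in cKO MC903 skin. Of 11 receptors of cytokines that act on granzyme genes, 5 were higher and 3 lower in skin than LN, against 28.8% of all genes in each direction, and none was called by genotype. With MC903 the interleukin receptor gene Il21r was lower in WT (-1.23 ± 0.18, adjusted p = 6.58e-04) and in cKO (-1.04 ± 0.18, 0.00228), both in all alternatives.

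**Figure D4:**
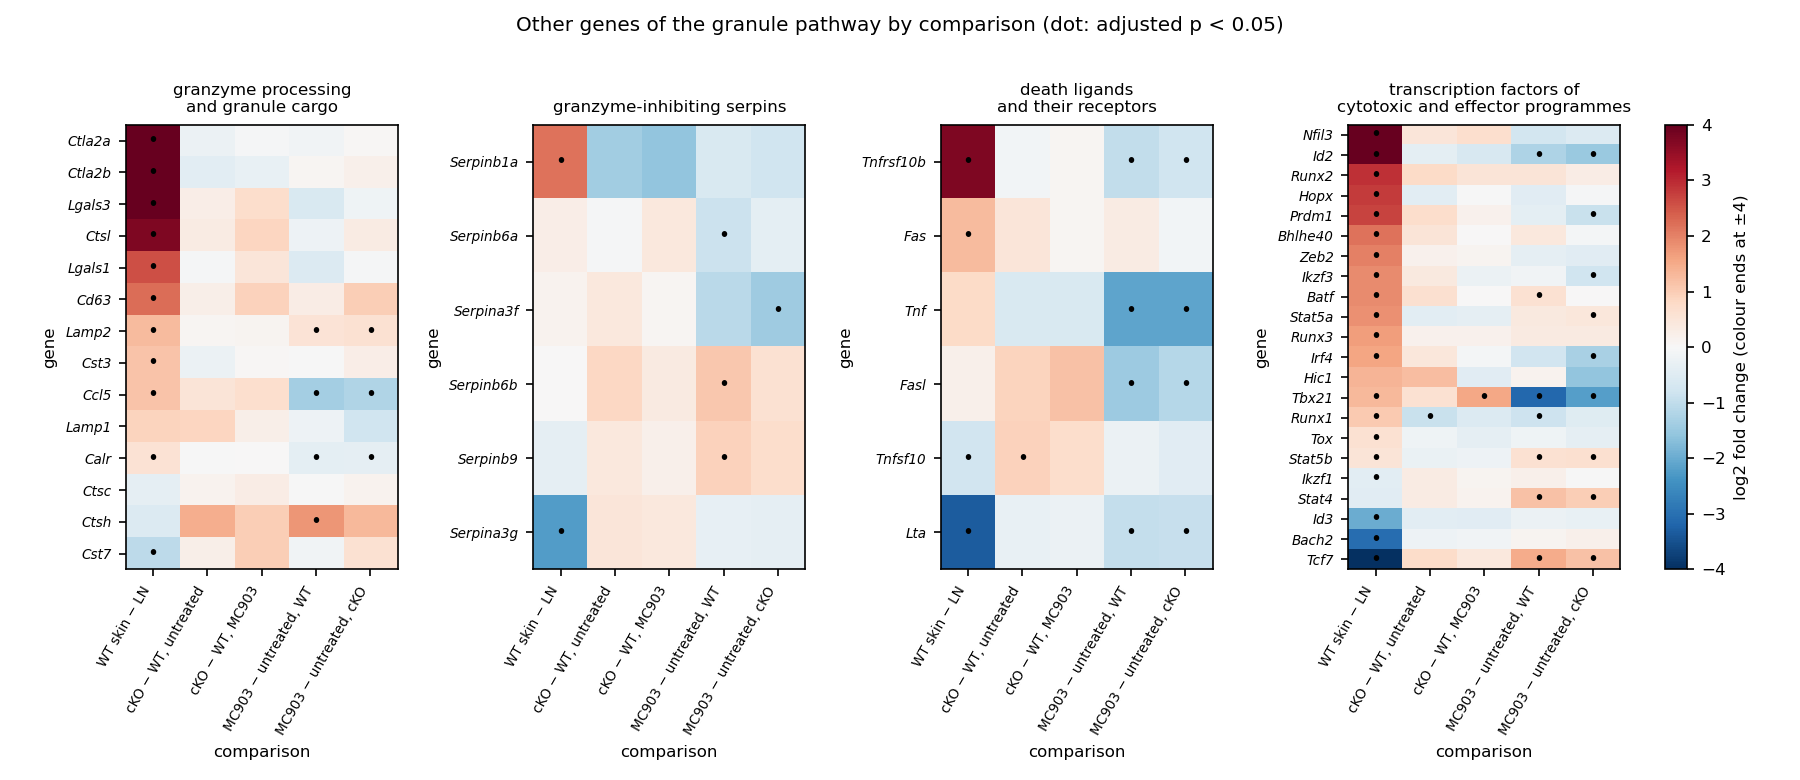
Log2 fold change (colour, ending at ±4) of the tested genes of 4 lists by comparison; dots mark an adjusted p under 0.05, and Eomes, at 0 in all libraries of a group, is not drawn. The column of WT skin against LN holds more dots than any other, both MC903 columns hold many as well, and the genotype columns hold dots for Tnfsf10, Runx1 and Tbx21 alone.

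The genes whose log2 CPM followed Gzmb most closely over the 15 libraries were Ier3, Ypel4 and Ccr3 (Pearson r = 0.989, 0.989 and 0.988). Over the 12 skin libraries they were Gm14718, P2ry14 and Adarb1 (0.951, 0.946 and 0.932), with Ccr3 and Ier3 next (0.927 and 0.922). The closest for Srgn was Cxcl2 (0.996), for Gzma Itga7 (0.947), for Gzmc Ncmap (0.936), for Ctsw Cd86 (0.946), for Nkg7 1700061F12Rik (0.874) and for Prf1 Il6ra (0.862). The 15 libraries share tissue, genotype and treatment in groups of 3, so these values describe the order of groups as much as single libraries.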

How the data were processed

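Tregs were sorted, RNA was amplified with a SMART-Seq v4 kit and 75-base single-end reads were sequenced, per the labels' protocols. The submitters' processing notes name TopHat2 2.0.6, the build mm9 and DESeq2. The counting tool and its annotation are not given in the sources used here. The authors deposited whole-number counts per gene and library. Their deposited LN against skin table gives, per the file headers, normalised signal averaged over libraries, log2 fold changes, their standard errors, a score that divides the former by the latter, and p-values.

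The tests used edgeR 4.0.16 under R 4.3.3: filterByExpr, TMM scaling, 1 robust quasi-likelihood fit to all 15 libraries, and Benjamini-Hochberg adjustment over 13578 genes for each of 7 comparisons, called at an adjusted p under 0.05. Errors are SE, the log2 change over the square root of F. Intervals of log2 changes are 95% intervals. Floors of 3 counts cover counting error only, since amplified reads lacking molecular identifiers can repeat a molecule. Alternatives used DESeq2 1.42.0, limma 3.58.1 (voom with sample weights), relative log expression factors, fits to the compared groups alone, a filter requiring 50 counts in 3 libraries, none beyond 1 count, the replicate number as a block, and each library left out. Leaving out the library of each group richest in CD8 and NK markers was chosen after seeing the data. The pipeline was tested on simulated data. Exon lengths and matches between transcripts came from GENCODE M21, an annotation of a later build than mm9.

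The members and gene lists were chosen with earlier results of these data known. Beside the members, the text names from each list at most 4 called genes per comparison, by smallest adjusted p, or else the gene with the smallest p, mainly those whose calls held, and the genes most like a member by Pearson's r over log2 CPM. Ctsc was named although outside that rule, after its value was seen. The labels number replicates within each group without saying whether equal numbers pair libraries, so the main fit used no block.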

Additional observations from a re-analysis of the deposited data

How the results depend on the processing

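Over the 7 tested members and 7 comparisons, 23 alternatives gave 1127 values, of which 1044 kept their direction and their side of the threshold, 52 lost a call, 12 gained one and 19 changed sign, none of the last from a called value. Of 1679 values of other named genes, 1471 stayed and 208 lost a call. The members called by genotype in untreated skin numbered 1 with the replicate block and 1 to 2 when single libraries were left out. For MC903 in cKO the count was 1 to 3 without single libraries. DESeq2 called 1 member in the interaction and 5 for genotype averaged. Among the 8 genes the block ended the calls of Nkg7 by genotype in untreated skin (0.0511) and of Gzma with MC903 in WT (0.0777). The labels do not say whether equal replicate numbers pair samples. Of 30 pairs of same-numbered libraries, 3 had a correlation of deviations over 0.1 (range -0.28 to 0.22). Differently numbered pairs were not computed, so these values cannot decide whether the numbers pair samples.

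Signs changed as follows, and the cause was not tested. With voom, skin against LN gave 1.20 for Gzma and 0.0019 for Nkg7, and Srgn by genotype in untreated skin -0.030. With 10 libraries these were 0.99, 0.15 and -0.068, Prf1 with MC903 in cKO was -0.16 and the Gzmb interaction 0.11. Leaving out single libraries gave -1.35 to 1.07 for Gzma (skin against LN), -0.43 to 0.17 for Nkg7 (skin against LN), -0.040 to 0.17 for Srgn (genotype in untreated skin), -0.36 to 0.24 for Ctsw (genotype in untreated skin), -0.032 to 0.60 for Prf1 (MC903 in cKO), -0.11 to 0.25 for Gzmb (MC903 in cKO), -0.31 to 1.04 for Gzma (interaction), -0.33 to 0.074 for Gzmc (genotype averaged).

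Genes called in all ranged over the alternatives from 60 to 344 for genotype in untreated skin, 16 to 151 in MC903 skin, 541 to 2118 for MC903 in WT, 645 to 2642 in cKO and 159 to 485 for genotype averaged. Gzmk, Gzma in LN and untreated skin, and Prf1 in skin were read at few counts, and no alternative varied depth.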
